A study of Mus musculus with 7 samples.

Results

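Proliferation genes were examined in sorted luminal cells of the mouse prostate, to ask whether RNA of the machinery for DNA replication and for mitosis differed between T-ETV1 and wild-type (WT) mice. The genes were chosen by name, 36 in all: 12 of G1/S and replication and 24 of mitosis. Among 18193 genes with a probe set of their own, 35 of the 36 were measured. Cyclin B1 (Ccnb1) was not analysed here. Of the 35, 33 lay above the 95th percentile of 44 olfactory receptor probe sets, which served as a stand-in for background and corresponds to an intensity of 15.1. Plk1 and Foxm1 did not. Over all genes 76.7% lay above it.

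T-ETV1 mice express a human ETV1 cDNA, encoding an ETS transcription factor, from the gene locus of Tmprss2, whose endogenous promoter is active in prostate epithelium. WT mice carry no such allele. Sorted cells of both genotypes carried CD49f and lacked CD31, CD45, Ter119 and Sca1. Those of T-ETV1 mice had to show GFP in addition, so genotype and GFP gate cannot be told apart. Age, strain, treatment and the number of mice per array were not given in the labels. There were 3 WT arrays (A to C) and 4 T-ETV1 arrays (A to D), each with 1 linear intensity per probe set, and their number limits the precision. The transgene itself was not analysed here.

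A cell that commits to division activates cyclin D kinases and then cyclin E with CDK2, which together release E2F factors from the retinoblastoma protein. Replication origins loaded with the MCM helicase then fire. Later, cyclins A and B with CDK1 drive entry into mitosis, and the transcription factors B-MYB and FOXM1 raise a later wave of genes for the spindle, the chromosomes and cell separation. Luminal cells of the adult prostate secrete fluid proteins and mostly rest, so RNA of these genes is thought to come mainly from the cells that are in cycle. In RNA from a bulk sort, more cycling cells and more RNA per cycling cell cannot be told apart.

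Both waves are marked in the promoters. Promoter windows (250 bases before to 50 after a gene's start, RefSeq, GRCm38.p6) were found for 29 of the 36 genes, in 32 windows. Ect2, Prc1 and Mcm7 each had more than 1 window. Those of Ect2 and of Prc1 overlap, so the counts by window can hold the same match again. Aurkb, Kif20a, Ccne2, Foxm1, Tpx2, Mcm4 and Ccna2 had no entry in the table. The motifs searched, on both strands, were the CHR element TTTGAA, the CCAAT box, and an E2F-type site, taken as TTTCCCGC, TTTGGCGC, TTTCGCGC or TTTGCCGC. The CHR element stood in 16 of 21 mitosis windows (76.2%), in 1 of 11 G1/S windows (9.09%) and in 17.9% of 32851 windows of all genes. A CCAAT box was present in 90.5% of mitosis windows, 81.8% of G1/S windows and 37.4% of all windows. Both together were present in 76.2% of mitosis windows, 9.09% of G1/S windows and 6.95% of all windows. The E2F-type site stood in 5 of 11 G1/S windows (45.5%), in 1 of 21 mitosis windows (4.76%, that of Cdk1) and in 2.26% of all windows.

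The 160 bases before the start are printed 5′ to 3′ for 6 genes, 3 of mitosis and then 3 of G1/S, whose values are given further on. They do not stand for all genes of their wave. The 3 G1/S genes are the only ones of that wave with an E2F-type match in this stretch. Pcna, Rrm2, Ccne1 and Mcm2 had none there, and Mcm2 had a CHR element. Plk1, Aurka and Cenpa had no CHR element in this stretch, and Birc5 had no match to any motif. Capitals mark every match to the searched motifs, on either strand. Overlapping matches run together in the E2F-type sites of Mcm5 and Mcm6.
Top2a, chr11:99024190-99024349 (- strand): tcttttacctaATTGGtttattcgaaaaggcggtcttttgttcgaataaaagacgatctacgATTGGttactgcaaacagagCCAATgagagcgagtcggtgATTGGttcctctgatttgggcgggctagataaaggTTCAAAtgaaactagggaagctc
Mki67, chr7:135716380-135716539 (- strand): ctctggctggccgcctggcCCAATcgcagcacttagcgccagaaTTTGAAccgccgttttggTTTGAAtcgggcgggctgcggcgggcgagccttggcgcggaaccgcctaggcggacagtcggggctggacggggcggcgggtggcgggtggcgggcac
Cdk1, chr10:69352913-69353072 (- strand): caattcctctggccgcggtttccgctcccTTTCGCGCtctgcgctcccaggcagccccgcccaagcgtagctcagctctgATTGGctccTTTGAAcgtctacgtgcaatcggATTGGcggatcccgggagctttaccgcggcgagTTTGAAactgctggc
Mcm5, chr8:75109349-75109508 (+ strand): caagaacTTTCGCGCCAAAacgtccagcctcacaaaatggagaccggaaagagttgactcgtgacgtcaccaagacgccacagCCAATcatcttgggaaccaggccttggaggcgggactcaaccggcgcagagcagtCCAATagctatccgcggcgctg
Mcm6, chr1:128359706-128359865 (- strand): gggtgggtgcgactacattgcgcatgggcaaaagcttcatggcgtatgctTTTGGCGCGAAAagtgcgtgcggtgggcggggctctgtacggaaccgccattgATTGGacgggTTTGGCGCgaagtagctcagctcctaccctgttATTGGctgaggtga
Cdk2, chr10:128705052-128705211 (- strand): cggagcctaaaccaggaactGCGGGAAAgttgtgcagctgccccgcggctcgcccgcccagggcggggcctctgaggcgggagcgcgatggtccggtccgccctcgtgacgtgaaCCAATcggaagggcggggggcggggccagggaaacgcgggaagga
The Top2a window held 4 CCAAT boxes and 1 CHR element in this stretch, the Mki67 window 1 and 2, and the Cdk1 window 2 of each with 1 E2F-type site. The windows of Mcm5, Mcm6 and Cdk2 held E2F-type sites and CCAAT boxes and no CHR element. A match describes letters and not factor binding, which was not measured.

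The arrays of letter C stood apart in RNA of other cell types. Most markers of those cell types also had lower means in T-ETV1 than in WT, for leukocytes through WT C. Of luminal markers, 6 of 9 were measured, and their summed intensity lay between 48012 and 52819 on the 7 arrays. Krt8, a luminal keratin, had intensities from 5505 to 8523. Summed intensities of 8 basal markers were 7547, 14009 and 21575 in WT A to C, and 3373, 4215, 18916 and 4610 in T-ETV1 A to D. For 11 leukocyte markers they were 7404, 7028 and 20615 in WT and 6405, 9378, 15079 and 5906 in T-ETV1. For 10 endothelial markers they were 1869, 2665 and 5789 in WT and 999, 619, 2736 and 955 in T-ETV1. WT C and T-ETV1 C were thus the highest arrays of their genotype for each of the 3 marker lists. Fibroblast and smooth muscle sums were highest in WT C as well, at 22705 and 5843, against 4455 to 10366 and 620 to 1562 in the other WT arrays. In T-ETV1 they ranged from 3780 to 8956 and from 135 to 823. Log2 differences were below 0 for 8 of 8 basal, 10 of 10 endothelial, 8 of 8 smooth muscle, 7 of 8 fibroblast and 9 of 11 leukocyte markers. An unadjusted p under 0.05 was found for 40.0% of the endothelial, 37.5% of the fibroblast and 37.5% of the smooth muscle markers, all lower, against 6.12% of all genes. No gene of these lists passed the adjusted threshold, and their part in the results on cell cycle genes was not tested.

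No gene of replication or mitosis differed between the genotypes past the threshold. With limma and Benjamini-Hochberg adjustment over all 18193 genes, 0 of 35 cell cycle genes had an adjusted p under 0.05, as did 0% of all genes, and the smallest adjusted p of any gene was 0.485. At an unadjusted p under 0.05 there were 2 of 35 (5.71%), both higher in T-ETV1: Ccne2 and Top2a. The background was 6.12% of all genes, of which 2% higher and 4.12% lower. The same 2 genes were the ones whose WT and T-ETV1 arrays did not overlap, against 6.32% of all genes, with 2.42% higher and 3.9% lower. Both counts lay near the background.

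Differences centred on 0 in both waves. Among the 12 G1/S genes 5 were above 0 and 7 below, with a median log2 difference of -0.02. Of the 23 mitosis genes 12 were above 0 and 11 below, with a median of 0.04. Over all genes 44.4% were above 0, with a median of -0.03. These splits moved with the scaling of the arrays: after median centring they were 10 above and 2 below for G1/S and 18 and 5 for mitosis, with medians of 0.11 and 0.18, while the median of all genes moved to 0.11. After quantile normalization they were 7 and 5 for G1/S and 17 and 6 for mitosis, with medians of 0.01 and 0.14 against 0.02 for all genes. Single differences close to 0 changed sign with it, 11 of 35 under median centring and 7 under quantile normalization, among them Mcm4, Rrm2, Cdk1, Cdca8, Tpx2, Kif20a and Ect2 under both.

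**Figure D1:**
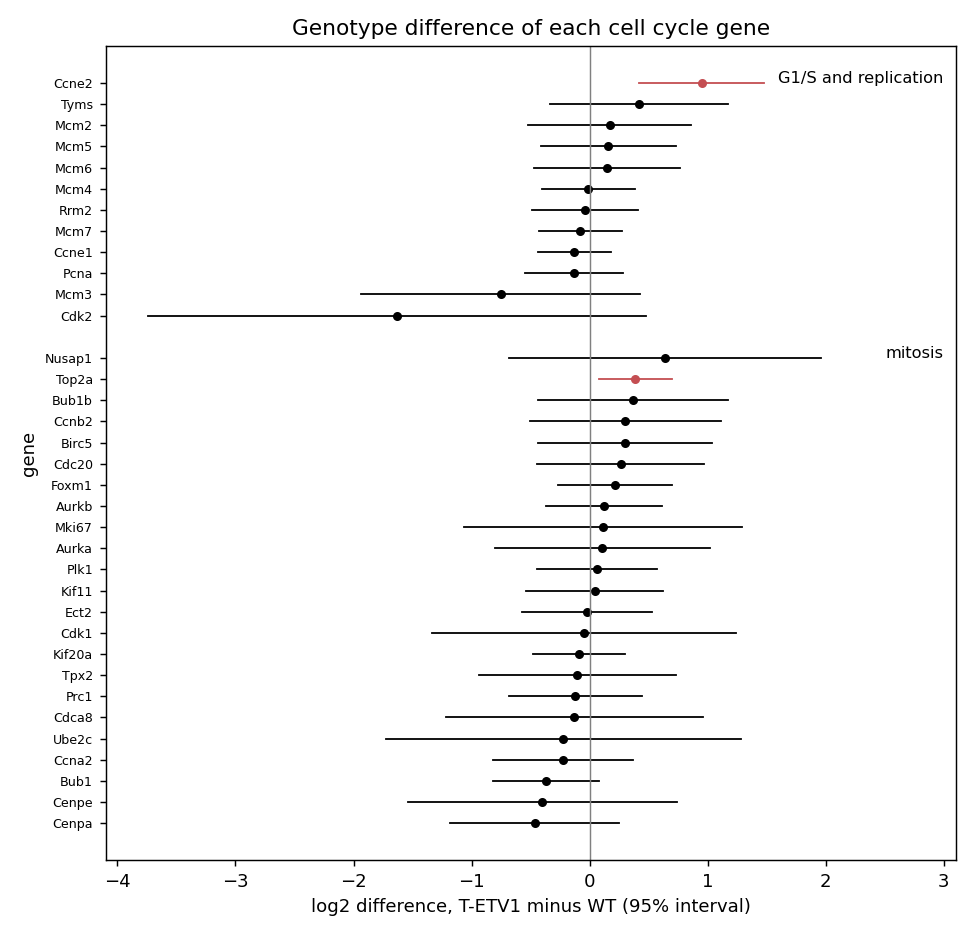
Log2 difference, T-ETV1 minus WT, on the log2(intensity + 16) scale, for each of the 35 measured genes (vertical axis), with its 95% interval from limma (horizontal bars, 3 WT and 4 T-ETV1 arrays). Red marks Ccne2 and Top2a, whose groups do not overlap; the bars of the other 33 genes cross 0, and that of Cdk2 is the widest, from -3.74 to 0.48.

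Cyclin E2 (Ccne2), which activates CDK2 at the start of S phase, had the highest positive difference of the 35. Its intensities were 106, 49.9 and 69.7 in WT A to C and 149, 141, 186 and 146 in T-ETV1 A to D. Every T-ETV1 array lay above every WT array. The log2 difference was 0.95 ± 0.22 (SE; 95% interval 0.42 to 1.48; limma, unadjusted p = 0.00404, adjusted p = 0.628). The exact permutation p was 0.0571 (two-sided, by doubling the share of 1 tail). That is the smallest that such doubling allows over 35 splits of 3 against 4 arrays. Only 1 probe set measured it, and over the alternative settings its adjusted p ran from 0.174 to 0.999.

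Its close relative cyclin E1 (Ccne1) did not share this pattern. It read 109, 109 and 94.1 in WT A to C and 101, 97.5, 75.5 and 102 in T-ETV1 A to D. The groups overlapped, with a log2 difference of -0.13 ± 0.13 (SE; 95% interval -0.44 to 0.18), and it changed sign, to 0.00623, under median centring. The difference between the cyclins E was not tested.

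Cdk2, the kinase partner of both, varied most among the members (it was picked for its spread after its values were seen). Its intensities were 162, 183 and 233 in WT A to C and 116, 4.41, 228 and 14.1 in T-ETV1 A to D. T-ETV1 B and D were below the olfactory receptor level while T-ETV1 C was as high as WT C, a 52.8-fold range. The log2 difference was -1.63 ± 0.88 (SE; 95% interval -3.74 to 0.48; limma adjusted p = 0.858). Without T-ETV1 C it was -2.25 and the groups no longer overlapped (limma adjusted p = 0.390). Over the alternatives its adjusted p ran from 0.377 to 0.999. The other Cdk2 probe set read 4.15 to 16.2, was not above the olfactory receptor level on average, and had a log2 difference of -0.05.

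The MCM genes encode the 6 subunits of the replicative helicase. Differences were above 0 for 3 of them and below 0 for 3, with a median log2 difference of 0.07 and a range from -0.75 to 0.17. Mcm2 read 343, 288 and 287 in WT A to C and 337, 582, 306 and 234 in T-ETV1 A to D, so that the T-ETV1 arrays spanned the WT values on both sides (0.17 ± 0.29, SE). Mcm5 read 73.2, 94.6 and 106 in WT and 70.8, 138, 86.7 and 128 in T-ETV1, again with overlap (0.16 ± 0.24, SE). Mcm4, Mcm6 and Mcm7 had log2 differences of -0.01, 0.15 and -0.08.

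Mcm3 stood apart from the other subunits in how its arrays fell, and its values are given for that reason, chosen after they were seen. It read 71.5, 74.7 and 133 in WT A to C and 30.9, 31.1, 142 and 28.4 in T-ETV1 A to D. T-ETV1 A, B and D lay below every WT array and T-ETV1 C above them. The log2 difference was -0.75 ± 0.50 (SE), and -1.20 without T-ETV1 C (limma adjusted p = 0.196). Without both arrays C it was -0.95, with a limma adjusted p of 0.0783, the lowest of any member in any setting. Of its 5 probe sets, 2 had differences above 0.

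Pcna, the sliding clamp of the DNA polymerases, read 2026, 2495 and 3093 in WT A to C and 2252, 2124, 2689 and 2083 in T-ETV1 A to D. Rrm2, the ribonucleotide reductase subunit that limits the supply of deoxynucleotides in S phase, read 1090, 1183 and 1643 in WT and 1134, 1550, 1145 and 1215 in T-ETV1. Both groups overlapped for both genes, with log2 differences of -0.14 ± 0.17 (95% interval -0.55 to 0.28) and -0.04 ± 0.19 (95% interval -0.49 to 0.41). Tyms, thymidylate synthase, had a log2 difference of 0.42 ± 0.32 (SE).

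**Figure D2:**
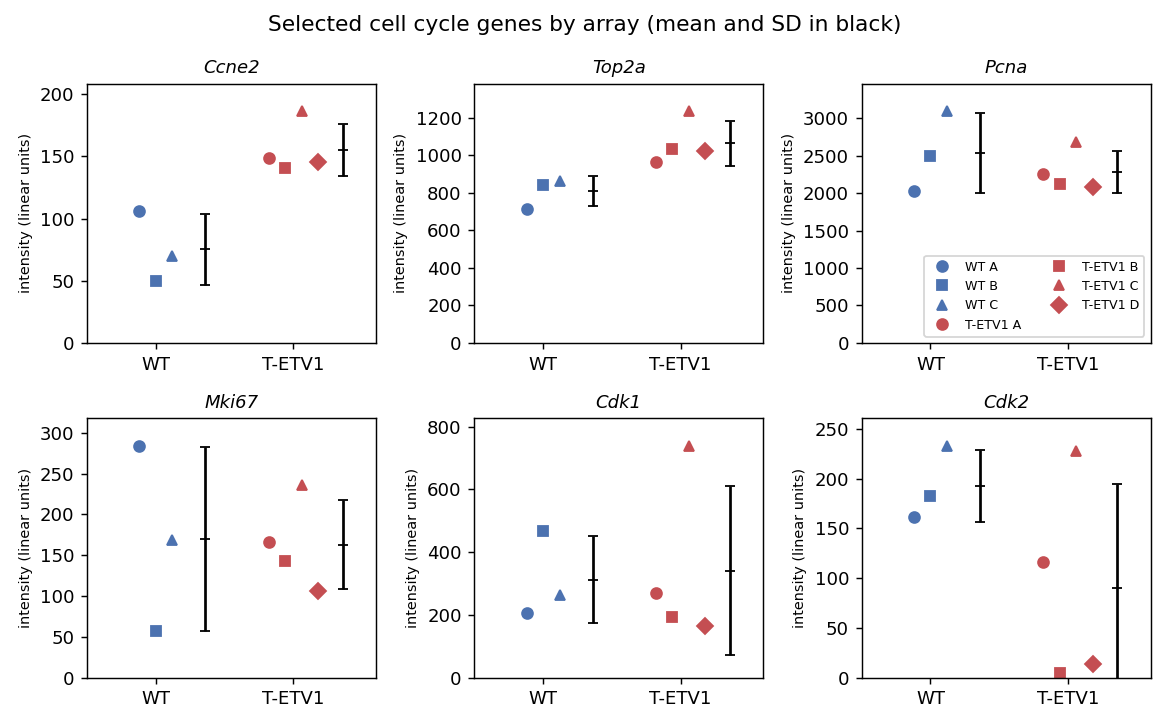
Deposited intensity (vertical axes, linear units, each panel on its own scale from 0) of 6 genes in the 3 WT (blue) and 4 T-ETV1 (red) arrays, with the mean and SD of each group in black; the SD bar of Cdk2 in T-ETV1 runs below 0 and is cut there. Every T-ETV1 array is above every WT array for Ccne2 and Top2a, and the groups overlap for Pcna, Mki67, Cdk1 and Cdk2.

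Among the mitosis genes, DNA topoisomerase II alpha (Top2a), which untangles sister chromosomes, was the one whose groups separated on each gene's brightest probe set. Its intensities were 715, 842 and 863 in WT A to C and 961, 1035, 1233 and 1020 in T-ETV1 A to D. All 4 T-ETV1 arrays were above the WT arrays, with a log2 difference of 0.39 ± 0.13 (SE; 95% interval 0.08 to 0.70; limma, unadjusted p = 0.0209, adjusted p = 0.758; over the alternatives 0.310 to 0.999). Its other probe sets were dimmer and did not move together: 1 had a log2 difference of 0.35 and the other of -0.61. The latter read 51.2, 32.2 and 27.5 in WT A to C and 28.5, 12.8, 18.3 and 14.99 in T-ETV1 A to D. With the probe sets of each gene averaged, the groups of Top2a overlapped and its unadjusted limma p was not under 0.05.

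Ki-67 (Mki67), which coats mitotic chromosomes and is the usual stain for cycling cells, read 284, 57.5 and 169 in WT A to C and 166, 143, 236 and 107 in T-ETV1 A to D. The highest and the lowest of the 7 values were both WT arrays. The log2 difference was 0.11 ± 0.49 (SE), and its 95% interval, from -1.06 to 1.29, covers a change of 1 log2 unit in either direction. Leaving out WT B turned it to -0.45.

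Genes of mitotic entry were split, 4 above 0 and 2 below, with a median log2 difference of 0.09. Cyclin A2 (Ccna2) read 318, 228 and 157 in WT A to C and 201, 189, 232 and 149 in T-ETV1 A to D. Cdk1, the kinase that drives mitosis, read 205, 468 and 263 in WT and 270, 192, 738 and 166 in T-ETV1, so that T-ETV1 C was the highest array and T-ETV1 D the lowest. The log2 differences were -0.23 ± 0.25 and -0.05 ± 0.54 (SE), with overlap in both. Aurka, the spindle pole kinase, had a log2 difference of 0.11 ± 0.38 (SE), which was -0.34 without WT C. Plk1, a kinase of mitotic entry and exit, read 8.05, 8.88 and 21.1 in WT and 11.9, 18.0, 7.45 and 17.6 in T-ETV1. Foxm1, the transcription factor of the mitotic wave, read 10.8, 9.73 and 12.3 in WT and 8.73, 21.4, 9.89 and 24.0 in T-ETV1. Plk1 and Foxm1 were at or near the olfactory receptor level on all arrays, and no direction is read from them.

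The chromosomal passenger complex corrects faulty attachments of chromosomes to the spindle. Birc5 (survivin), its targeting subunit, read 183, 189 and 203 in WT A to C and 171, 263, 418 and 172 in T-ETV1 A to D. T-ETV1 B and C were above every WT array and T-ETV1 A and D below, with a log2 difference of 0.30 ± 0.31 (SE). Aurkb, its kinase, and Cdca8 (borealin) had log2 differences of 0.12 ± 0.21 and -0.13 ± 0.46.

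Cdc20, the activator of the anaphase promoting complex, read 105, 159 and 117 in WT A to C and 133, 153, 257 and 103 in T-ETV1 A to D. T-ETV1 C held the highest value and T-ETV1 D the lowest, with a log2 difference of 0.26 ± 0.29 (SE). The other genes of the checkpoint and of that complex had log2 differences of -0.37 (Bub1), 0.37 (Bub1b) and -0.22 (Ube2c). Their groups overlapped.

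Genes of the centromere, the spindle and cell separation were above 0 in 2 of 8 cases, with a median log2 difference of -0.10. Cenpa, the histone variant that marks centromeres, read 152, 51.0 and 87.8 in WT A to C and 68.0, 67.4, 53.1 and 54.5 in T-ETV1 A to D. The T-ETV1 arrays lay close together and within the WT range, and the log2 difference was -0.46 ± 0.30 (SE). Nusap1, which bundles spindle microtubules, had the largest positive difference of the mitosis genes, 0.64 ± 0.55, over a 14.3-fold range of intensities. For Cenpe, Tpx2, Kif11, Kif20a, Prc1 and Ect2, motors and bundling factors of the spindle and midzone and an activator of cell separation, it lay between -0.40 and 0.04.

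**Figure D3:**
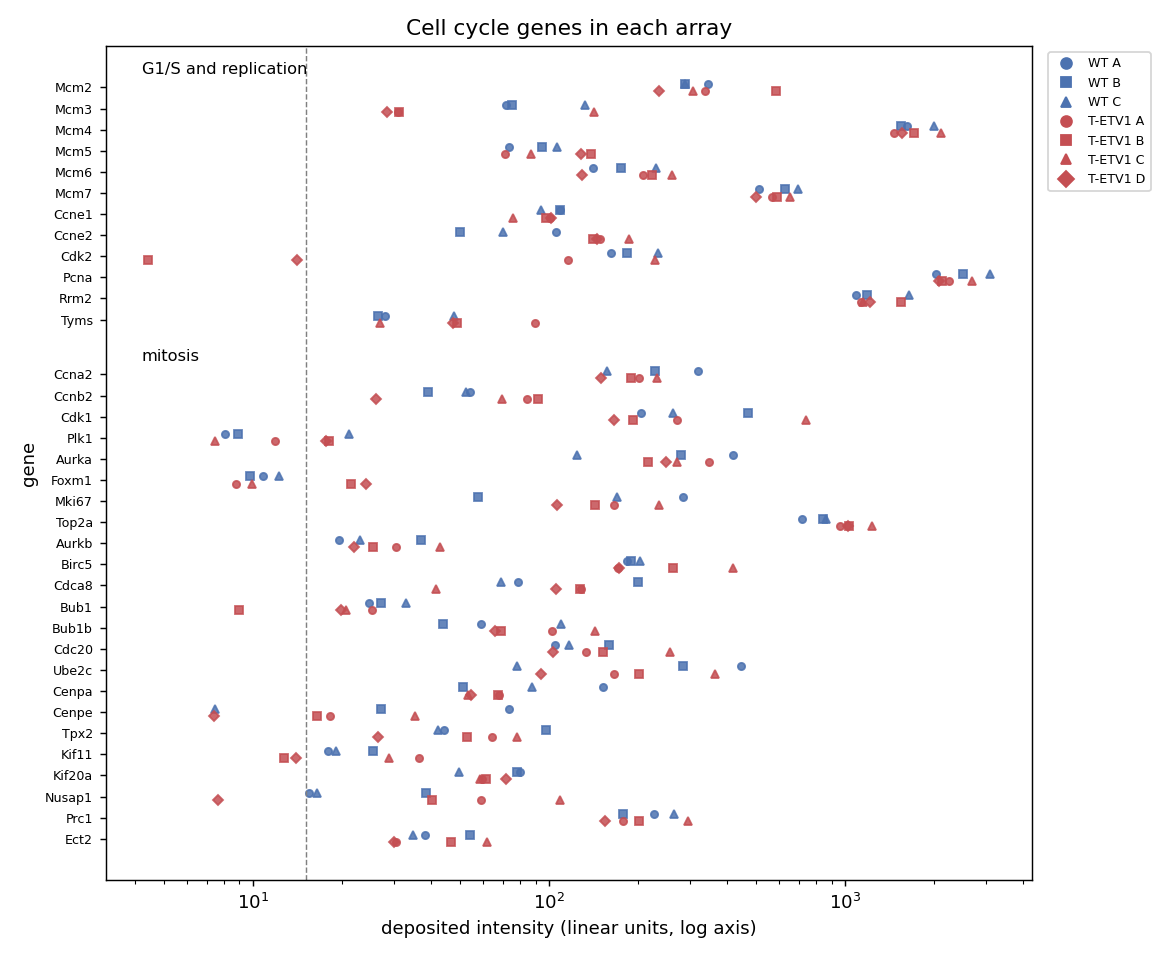
Deposited intensity (horizontal axis, log scale) of the 35 measured genes (vertical axis) in each of the 7 arrays, WT in blue and T-ETV1 in red, with 1 symbol per letter; the dashed line is the olfactory receptor level of 15.1. Red and blue symbols are mixed for all genes but Ccne2 and Top2a; positions of different genes come from different probe sets and are not to be compared.

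The mitosis genes varied more between T-ETV1 arrays than between genotypes. The mean log2 deviation of the 23 genes from their 7-array means was 0.08, 0.04 and -0.18 in WT A to C and 0.06, -0.01, 0.34 and -0.33 in T-ETV1 A to D. T-ETV1 C was the highest array for 9 of the 23 mitosis genes and T-ETV1 D the lowest for 9. The group means were -0.02 ± 0.14 (SD, n = 3) and 0.01 ± 0.27 (SD, n = 4). For the 12 G1/S genes the deviations were -0.07, -0.05 and 0.25 in WT and 0.01, -0.09, 0.23 and -0.28 in T-ETV1. There WT C and T-ETV1 C were both high and T-ETV1 D was again the lowest. Their group means were 0.04 ± 0.18 (SD, n = 3) and -0.03 ± 0.21 (SD, n = 4).

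Over all 35 genes T-ETV1 C was the highest array for 13 (37.1%) and T-ETV1 D the lowest for 13 (37.1%), against 18.1% and 16.2% of all genes. Among genes above the olfactory receptor level the shares were 39.4% and 39.4%, against 18.2% and 15.7%. The median SD within a genotype was 0.37 for the cell cycle genes, 0.44 for those of mitosis and 0.33 for those of G1/S, against 0.27 for all genes. T-ETV1 C had the highest sums of basal, leukocyte and endothelial markers among the T-ETV1 arrays, and WT C the highest of all arrays. Their part in the spread of the cell cycle genes was not tested.

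**Figure D4:**
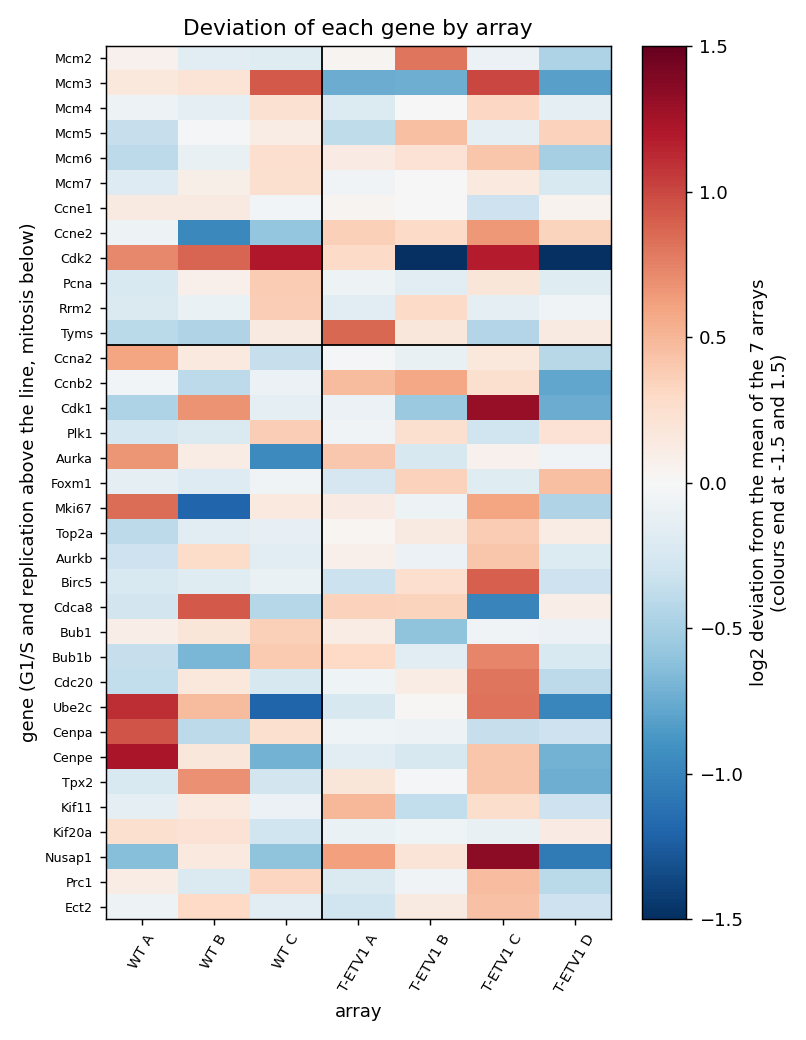
Log2 deviation of each of the 35 measured genes (rows) from its mean over the 7 arrays (columns, WT left of the vertical line); red is above the mean, blue below, and the colours end at -1.5 and 1.5. T-ETV1 C is the highest array for 13 genes and T-ETV1 D the lowest for 13.

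Arrays of the same letter deviated together, so the comparison was also made within letters. In arrays A to C with the replicate block, 4 genes had an unadjusted p under 0.05, all higher in T-ETV1: Ccne2 (0.98), Ccnb2 (0.60), Top2a (0.41) and Bub1b (0.50, all log2). Their limma adjusted p was 0.572 or higher. The share of all genes with such a p was 7.22%. Ccnb2 encodes a B-type cyclin and Bub1b a protein of the spindle checkpoint. Groups of these 6 arrays did not overlap for 4 genes, Ccne2, Ccnb2, Top2a and Nusap1, against 9.06% of all genes. All 3 letters were higher in T-ETV1 for Mcm6, Ccne2, Ccnb2, Top2a, Bub1b and Nusap1, and lower for Ccne1 and Cdk2. That made 6 of 35 higher (17.1%, against 10.9% of all genes) and 2 lower (5.71%, against 16.7%). Of the mitosis genes 4 were higher and 0 lower in all letters.

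Counts at the unadjusted threshold also moved with single arrays. Leaving out WT A left 1 gene with an unadjusted p under 0.05 (6.63% of all genes), and leaving out T-ETV1 C or T-ETV1 D gave 4 each (9.84% and 4.45% of all genes). Genes whose groups did not overlap numbered 5 without WT C (13.8% of all genes) and 4 without T-ETV1 C or T-ETV1 D (15.98% and 9.06%). Without both arrays C there were 7 and 12 such genes, the 12 being 5 higher and 7 lower, against 9.42% and 26.0% of all genes. No cell cycle gene had an adjusted p under 0.05 in any of these.

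Further lists covered the rest of the pathway, and none of their genes had an adjusted p under 0.05. Over all genes 6.12% had an unadjusted p under 0.05, and 6.32% had groups that did not overlap, against which the counts of each list are read. Of 32 other replication genes 12 were above 0 and 20 below (median -0.04), and 2 (6.25%) had an unadjusted p under 0.05, both higher. These were Fen1, the flap nuclease of lagging strand synthesis (0.49 ± 0.16, SE), and Mcm10, an initiation factor (0.94 ± 0.38). Next came Lig1, the replicative ligase (-0.57 ± 0.26), and Cdt1, the licensing factor (-0.40 ± 0.20). For Mcm10 and for Cdt1, 1 of 3 probe sets went the other way. Of 21 G1 cyclins, RB family and E2F genes 9 were above 0 and 12 below (median -0.02). Rbl2, an RB relative, had an unadjusted p under 0.05 (-0.50 ± 0.15; 1 of 21, 4.76%), and the groups of Rbl2, Rb1 (-0.30), Cdk4 (-0.20) and Cdk6 (0.71) did not overlap (19.0%). Rb1 was 0.09 as the mean of its probe sets. Of 12 CDK inhibitors and antiproliferative genes 7 were above 0 and 5 below (median 0.04), and Gas1, a growth arrest gene, had an unadjusted p under 0.05 (-2.53 ± 0.85; 1 of 12, 8.33%). Gas1 read 99.1, 241 and 1448 in WT A to C and 21.9, 32.0, 85.4 and 58.3 in T-ETV1 A to D, and without WT C the difference was -1.499. The fibroblast marker sum was highest in WT C too, and its part in this result was not tested.

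Of 36 other mitosis genes 21 were above 0 and 15 below (median 0.11), and 6 (16.7%) had an unadjusted p under 0.05, 2 higher and 4 lower, against 6.12% of all genes. Without the lowest 50% of genes, a filter applied before testing, there were 2, both lower, against 5.72% of all genes. The groups of 5 (13.9%) did not overlap, 2 higher and 3 lower, against 6.32% of all genes. The lowest p-values were those of Incenp, the scaffold of the passenger complex (-0.93 ± 0.23), Hmmr, a spindle factor (0.99 ± 0.24), Pttg1 (-2.24 ± 0.63) and Nek2, a centrosome kinase (0.42 ± 0.12, log2 ± SE). Probe sets going the other way were 2 of 5 for Hmmr, 1 of 4 for Nek2, 0 of 5 for Incenp and 0 of 3 for Pttg1. Nek2 read 19.1 to 23.2 in WT, near the olfactory receptor level of 15.1, and Hmmr read 16.5 in WT C. Pttg1 is securin, which holds separase inactive until anaphase. It read 4456, 4424 and 3206 in WT A to C and 575, 651, 2850 and 439 in T-ETV1 A to D. T-ETV1 A, B and D were far below every WT array and T-ETV1 C just below WT C. The limma adjusted p was 0.716 over all arrays, 0.0216 without T-ETV1 C (log2 difference -2.83) and 0.0243 without both arrays C (-2.98), while the other alternatives kept it above the threshold. The basal marker sum was also highest in array C among the T-ETV1 arrays, whereas in WT Pttg1 was lowest in array C, where the basal sum was highest. The part of basal cells in this result was not tested.

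**Figure D5:**
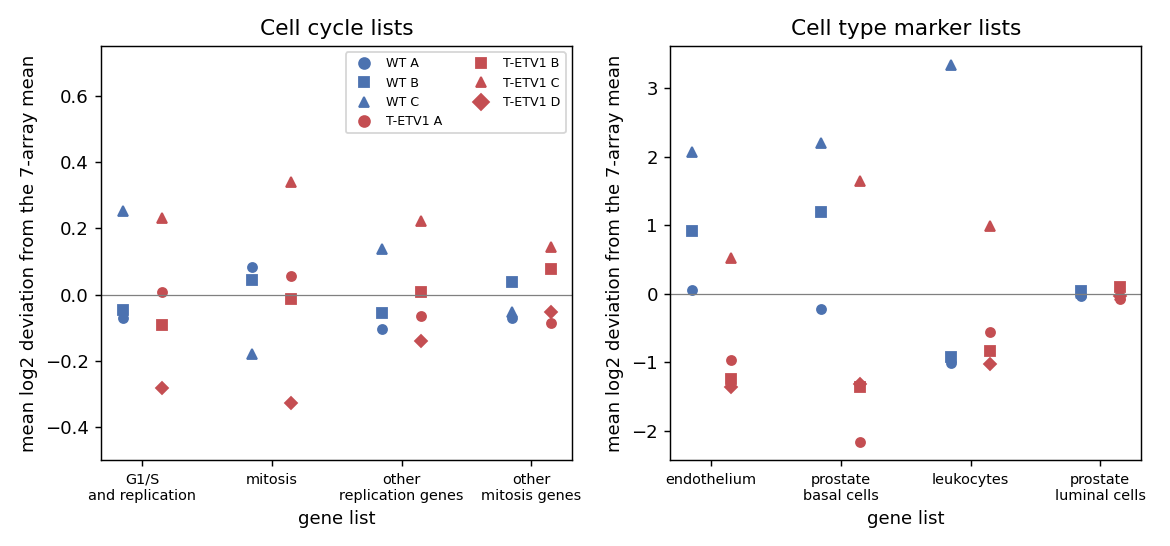
Mean log2 deviation from the 7-array mean (vertical axes) of cell cycle gene lists (left) and of cell type marker lists (right) in each array, WT in blue and T-ETV1 in red, with different vertical scales. T-ETV1 C and D are the highest and the lowest array of the mitosis list at 0.34 and -0.33, while WT C is the highest array of the endothelial, basal and leukocyte lists.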

How the data were processed

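RNA of sorted luminal cells was extracted with Trizol, amplified with a NuGEN kit and hybridised to Affymetrix mouse expression arrays, per the labels' protocols. The authors deposited 1 linear intensity for each of 45037 probe sets and 7 arrays; for the probe summary and the array scaling, the method is not given in the sources used here. The deposited intensity was 1 or lower in 1907 cases.

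Values were taken as log2(intensity + 16), which understates changes at low intensity. Medians of the arrays differed by at most 0.476, under the limit of 0.5 for rescaling, and the deposited scaling was kept. The platform annotation gave 1 gene for 34945 probe sets, several for 932 and none listed for 9160; 34741 were updated by Entrez ID with a RefSeq table of GRCm38.p6. The probe set with the highest mean stood for a gene, leaving 18193 genes. limma 3.58.1 in R 4.3.3 (lmFit, eBayes, 6.67 total degrees of freedom) tested T-ETV1 minus WT, two-sided, with Benjamini-Hochberg adjustment over all genes and a threshold of 0.05, and was tested on simulated data. Figures were drawn with matplotlib 3.10.9.

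Members and lists were chosen with earlier results of these data known. All members may be named; values in every array are given for 16 listed genes and for members with an unadjusted p under 0.05 or groups that do not overlap, and of each further list up to 4 genes with the smallest p. All 7 arrays were used, although the design text counts 3 biological replicates and the labels list 4 for T-ETV1. Whether each array is a separate animal is not stated, so p-values measure the spread between these arrays.

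Arrays of the same letter deviated together over all genes (correlations 0.281, 0.217 and 0.356 for A, B and C, all above the limit of 0.1). Between arrays of different letters the correlations ran from -0.320 to 0.187. The 0.187, of WT A with T-ETV1 D, was also above the limit, so the limit alone did not set same letters apart. The letters were taken to pair the arrays, and the fit with the letter as a replicate block was run on arrays A to C. Alternatives were 2 other scalings, pseudocounts of 1 and 64, filters on the lowest 30% and 50% of genes, 2 other treatments of probe sets, trended and robust eBayes, array weights, each array left out, and both arrays C left out, the last chosen after seeing the data.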

Additional observations from a re-analysis of the deposited data

Results flagged for a closer look

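Among the 4 T-ETV1 arrays, a single array stood far from the other 3 for 2 of 35 cell cycle genes, by Dixon's ratio of the gap to the whole range at its critical value for 4 samples. Both were in T-ETV1 C: Ccne1 had an intensity of 75.5, below the others, and Mcm3 an intensity of 142, above them. That is 5.71% of the cell cycle genes, against 6.81% of all genes. Chance flags about 1 in 20 groups.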

How the results depend on the processing

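No cell cycle gene had an adjusted p under 0.05 under any of the 20 alternatives. Over all genes the count was 0 to 27 with 1 array left out (7 without WT C, 27 without T-ETV1 C) and 68 without both arrays C, and 0 under the others. The number of cell cycle genes with an unadjusted p under 0.05 was 2 as reported. It was 1 without the lowest 50% of genes, 4 with array weights and 4 with the replicate block. It was 7 without both arrays C and 1 to 4 with 1 array left out. With every probe set on its own there were 5 probe sets of 4 genes, Top2a in both directions. That count is over probe sets and cannot be set against the 2 genes. The share of all genes with such a p was 5.72% under the filter and 12.9% with array weights. It was 7.22% with the replicate block, 9.42% without both arrays C and 4.45% to 9.84% with 1 array left out. Of all probe sets it was 6.06%. The number of cell cycle genes with groups that do not overlap was also 2 as reported. It was 1 under the filter, 4 with the replicate block, 12 without both arrays C and 2 to 5 with 1 array left out. With every probe set on its own it was 4, again counted over probe sets. As the mean of the probe sets these were Ccne2 (0.95), Tyms (0.31) and Bub1 (-0.35), and Top2a was in neither count. Groups did not overlap for 5.97% of all genes under the filter, 9.06% with the replicate block and 26.0% without both arrays C. The share was 6.54% with the mean of the probe sets and 9.06% to 15.98% with 1 array left out. Of all probe sets it was 6.28%. The filter on the lowest 50% of genes removed Ccne2 before testing, so under that filter both counts hold Top2a alone and Ccne2 was not tested. The replicate block changed no adjusted call. The medians of both waves moved by less than the SD between arrays under all alternatives. Log2 differences that changed sign were those of Mcm4 (0.0292), Rrm2 (0.000242), Cdk1 (0.0573), Cdca8 (0.00177), Tpx2 (0.0177), Kif20a (0.0292) and Ect2 (0.0838) under quantile normalization, of Mcm4 (0.12), Mcm7 (0.0573), Ccne1 (0.00623), Pcna (0.00101), Rrm2 (0.10), Cdk1 (0.091), Cdca8 (0.00698), Tpx2 (0.032), Kif20a (0.0433), Prc1 (0.016) and Ect2 (0.11) under median centring. Further sign changes were those of Mcm4 (0.0138), Rrm2 (0.0168), Aurkb (-0.13), Cdc20 (-0.053), Kif11 (-0.0563) and Krt8 (-0.0799) with array weights, of Mcm4 (0.0298), Cdk1 (0.20), Ube2c (0.0706), Tpx2 (0.13) and Ect2 (0.0765) with the replicate block, of Rrm2 (0.042), Aurka (-0.0639), Cdca8 (0.0859), Tpx2 (0.15) and Rb1 (0.0913) as the mean of the probe sets, of Rrm2 (0.18), Aurka (-0.35), Aurkb (-0.0536), Cdc20 (-0.0131) and Kif11 (-0.0725) without both arrays C. With 1 array left out the sign changed within the range of Mcm2 (-0.0731 to 0.35), Mcm4 (-0.12 to 0.10), Mcm6 (-0.0121 to 0.33), Mcm7 (-0.20 to 0.0161), Pcna (-0.29 to 0.017), Rrm2 (-0.16 to 0.14), Ccna2 (-0.47 to 0.00659), Cdk1 (-0.49 to 0.28), Plk1 (-0.0482 to 0.27), Aurka (-0.34 to 0.47), Mki67 (-0.45 to 0.57), Aurkb (-0.00277 to 0.29), Cdca8 (-0.38 to 0.29), Ube2c (-0.88 to 0.27), Cenpe (-0.87 to 0.10), Tpx2 (-0.27 to 0.21), Kif11 (-0.12 to 0.17), Kif20a (-0.27 to 0.00187), Prc1 (-0.29 to 0.00411), Ect2 (-0.18 to 0.11) and Krt8 (-0.0793 to 0.16). Of 671 values of cell cycle genes under alternatives, 74 changed sign, 8 of them by more than 1 SE. The causes were not tested. Genes not above the olfactory receptor level on average, Plk1 and Foxm1, allow no statement on direction. Bub1, Cenpe, Kif11, Nusap1 and Cdk2 lay above it on average but had arrays below it, which limits what their directions can show. With 3 and 4 arrays the 95% intervals of Mki67, Cdk1 and Ube2c cover changes of 1 log2 unit in either direction; those of the other cell cycle genes do not.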
